A study of Mus musculus with 12 samples.

Results

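The HMGN genes encode small nucleosome-binding proteins, and the 4 members considered here are *Hmgn1*, *Hmgn2*, *Hmgn3* and *Hmgn5*, out of 56691 genes in the count table. They were chosen by gene symbol because *Hmgn3* had been seen to be higher in KO than in WT oocytes at every stage, so the difference between genotypes is given below as a description that supports nothing, with no p-value. The study sequenced polyadenylated RNA from mouse oocytes as 12 libraries, with 2 genotypes at 3 stages of meiotic maturation giving 6 groups of 2. WT oocytes carried intact *Alkbh5*, which encodes a demethylase of N6-methyladenosine (m6A) in RNA. KO oocytes came from *Alkbh5-/-* females, a whole-body deletion of the first exon made with CRISPR-Cas9, so the cells around the oocyte lacked the gene too. By the study's methods, oocytes of 3-week-old, hormone-primed females of both genotypes were taken at the germinal vesicle (GV) stage or cultured and collected, by time in culture, as germinal vesicle breakdown (GVBD) and metaphase II (MII) samples. The study describes that many KO oocytes did not pass through breakdown or release a polar body, and its text does not make clear whether KO oocytes were staged before they were pooled. Genotype and maturation delay therefore cannot be told apart in the KO GVBD and KO MII libraries.

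HMGN proteins bind the nucleosome core through a short, positively charged domain, without preference for an underlying DNA sequence, and compete with linker histone H1 for chromatin, which loosens chromatin compaction. HMGN1 and HMGN2 are the widely expressed members, HMGN3 is best known from endocrine and neural tissues, and HMGN5 carries a long acidic tail and is encoded on the X chromosome. A fully grown oocyte is largely silent in transcription. From GV to MII the amount of an mRNA can then change through decay, and its polyadenylation through tail lengthening or shortening. The study also describes a changed nuclear configuration in KO, with relatively more GV oocytes of the non-surrounded nucleolus type. Whether transcription went on in the KO oocytes was not tested here.

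All 4 genes lie on the minus strand of GRCm38 (GENCODE M21). *Hmgn1* (ENSMUSG00000040681) spans chr16:96120618-96127729, *Hmgn2* (ENSMUSG00000003038) chr4:133964738-133968650, *Hmgn3* (ENSMUSG00000066456) chr9:83109948-83146685 and *Hmgn5* (ENSMUSG00000031245) chrX:109004534-109013404. The domain that defines the family is shown first, because it is what the members share. Each line gives 30 bases of coding sequence, 5′ to 3′ on the mRNA, with the 24 bases that encode the core nucleosome-binding motif in capitals. In each gene this stretch crosses an exon junction.
Hmgn1: aagCGCCGCTCCGCGAGGCTGTCGGCCaag
Hmgn2: cagAGAAGATCTGCGAGGTTGTCTGCTaaa
Hmgn3: acaAGACGGTCGGCCAGGTTGTCCGCGaaa
Hmgn5: aagAGAAGATCAGCCCGACTGTCTGCTatg
The motif begins at codon 18 of 96 in *Hmgn1*, 23 of 90 in *Hmgn2*, 25 of 99 in *Hmgn3* and 16 of 406 in *Hmgn5*. Between pairs of members, 14 to 19 of the 24 bases were identical, the fewest between *Hmgn1* and *Hmgn5* and the most between *Hmgn2* and *Hmgn5*. The members thus share the encoded motif but use different codons for it, and *Hmgn5* has by far the longest coding sequence.

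The ends of the transcripts are shown next, since the libraries were made from polyadenylated RNA and the stages differ in what happens to maternal mRNA. Each line gives a 30-base window of a 3′ UTR with the polyadenylation signal AATAAA in capitals, read from the minus strand.
Hmgn1 (chr16:96121594-96121623): tgctcctcgaccAATAAAatctgttgtgaa
Hmgn2 (chr4:133964750-133964779): aaaagaatctttAATAAAgctggttacagt
Hmgn3 (chr9:83109953-83109982): tttgtggtttaaAATAAAaaggttttcttg
Hmgn5 (chrX:109004540-109004569): tggatttatcatAATAAAagagttccacaa
The signal ended 24, 17 and 18 bases before the annotated transcript end in *Hmgn2*, *Hmgn3* and *Hmgn5*. In *Hmgn1* it ended 18 bases before the RefSeq 3′ end, but 988 bases before the GENCODE end. Of 20980 protein-coding transcripts, 60.5% had AATAAA in their last 50 bases.

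A cytoplasmic polyadenylation element, the letters TTTTAT or TTTTAAT to which the oocyte protein CPEB binds, was found within the last 100 bases only in *Hmgn3* among the 4 members. Only the sense strand was searched, for these and for all motifs named here. Both spellings were present there, in the overlapping windows shown with the element in capitals.
Hmgn3 (chr9:83110015-83110044): tttgtgcctaggTTTTATgtgattttaatg
Hmgn3 (chr9:83110004-83110033): gttttatgtgaTTTTAATgaaatatggata
TTTTAT occurred in the last 100 bases of 13.1% of all 20980 transcripts and TTTTAAT in 4.8%. Over the whole 3′ UTR, TTTTAT occurred 2 times in *Hmgn1*, 5 in *Hmgn2*, 2 in *Hmgn3* and 4 in *Hmgn5*. In *Hmgn5* a TTTTAAT lay just outside the window, 110 bases before the transcript end. GGACT, a common sequence context of m6A, occurred 3 times in the 3′ UTR of *Hmgn1*, once each in those of *Hmgn2* and *Hmgn3* and not in that of *Hmgn5*, against 53.4% of all transcripts with at least 1 match. The match in *Hmgn3* is shown with its letters in capitals.
Hmgn3 (chr9:83110279-83110308): gctaattttttaGGACTctattagtcagca
The Pumilio element TGTANATA, to which an oocyte regulator of mRNA stability binds, was found in the 3′ UTR of *Hmgn1* alone among the members, and in 21.3% of all transcripts. The AU-rich pentamer ATTTA occurred in those of *Hmgn1* and *Hmgn5*, and in 61.1% of all. In *Hmgn1* these counts rest on the longer GENCODE 3′ UTR. The Pumilio element (chr16:96121284-96121313) and the ATTTA (chr16:96120618-96120647) lie beyond its RefSeq 3′ end at chr16:96121588. So do the GGACT matches at chr16:96121472-96121501 and chr16:96121106-96121135. These matches describe the letters and no binding was measured.

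A library held 28557742 to 40247810 counts, of which 221927 to 838409 fell on the ERCC spike-in, a mix of synthetic RNAs added to each tube. Values are given as counts per 1000 ERCC counts unless stated otherwise. Such a level scales with how many oocytes a tube held, on which the methods and a figure legend differ, and fewer oocytes and less RNA per oocyte cannot be told apart. The targeted gene *Alkbh5* had 5355 to 10181 counts in the WT libraries and 54 to 143 in the KO libraries. All 9 oocyte markers were detected in every library. Markers of granulosa cells, which surround the oocyte, summed to 29.3 to 47.4 CPM in WT and 37.3 to 76.8 CPM in KO, and 1 to 3 of the 10 markers were at 0 in a library. *Amh* was at 0 in 11 libraries and *Foxl2* in 10, whereas *Cyp19a1* had 577 to 2225 counts.

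*Hmgn1*, which encodes one of the widely expressed members, was lowest at MII. Its WT counts were 2705 and 2628 at GV, then 5886 and 3485 at GVBD, falling to 646 and 764 at MII. Its KO counts were 3494 and 4228 at GV, then 3845 and 6212 at GVBD, with 853 and 436 at MII. The 4 MII libraries were the lowest of the 12 and did not overlap with any GV or GVBD library. The share of all genes with this separation was not counted. Scaled to ERCC, the median tested gene in WT also had a log2 change of −1.06 from GV to MII. On the spike-in scale the WT means from GV to MII were 8.56 ± 0.869 (SD, n = 2), 13.6 ± 8.41 and 1.09 ± 0.257. The KO means were 14.5 ± 1.69, 16.3 ± 0.911 and 1.44 ± 0.947. At GVBD the WT libraries were far apart, at 19.5 and 7.64, and the KO values lay between them.

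*Hmgn2*, which encodes the other widely expressed member, had WT counts of 364 and 321 at GV, then 783 and 448 at GVBD, with 102 and 119 left at MII. The KO libraries held 416 and 475 at GV, next 145 and 489 at GVBD, with 56 and 60 left at MII. Again the MII libraries were the lowest 4, a separation that was not counted over all genes. The WT means per 1000 ERCC counts were 1.09 ± 0.0364 (SD, n = 2), 1.79 ± 1.14 and 0.172 ± 0.0420 in the order GV, GVBD and MII, and the KO means were 1.69 ± 0.265, 0.962 ± 0.525 and 0.123 ± 0.0229. KO GVBD replicate 1 was lower than the other GVBD and GV libraries.

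Counts of *Hmgn2* are uncertain because the genome holds near-identical copies of it, and the authors kept only uniquely mapped reads. A search of GENCODE transcripts found 25 copies with at least 90% identity over at least 100 bases. The counts of these copies summed to between 165% and 628% of those of *Hmgn2* in the same library. The largest share fell on *Gm10282*, a protein-coding copy on chromosome 8 with 99.3% identity over 1151 bases, which had 1123 to 1575 counts in WT GV and GVBD and 81 and 145 in WT MII. With all copies added, *Hmgn2* reached 2424 and 2338 counts in the GV libraries of WT, 3464 and 2325 at GVBD, with 329 and 377 at MII. In KO the sums were 1815 and 2507, then 743 and 2341, then 189 and 159. The low MII values were thus also seen in the summed counts.

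**Figure D1:**
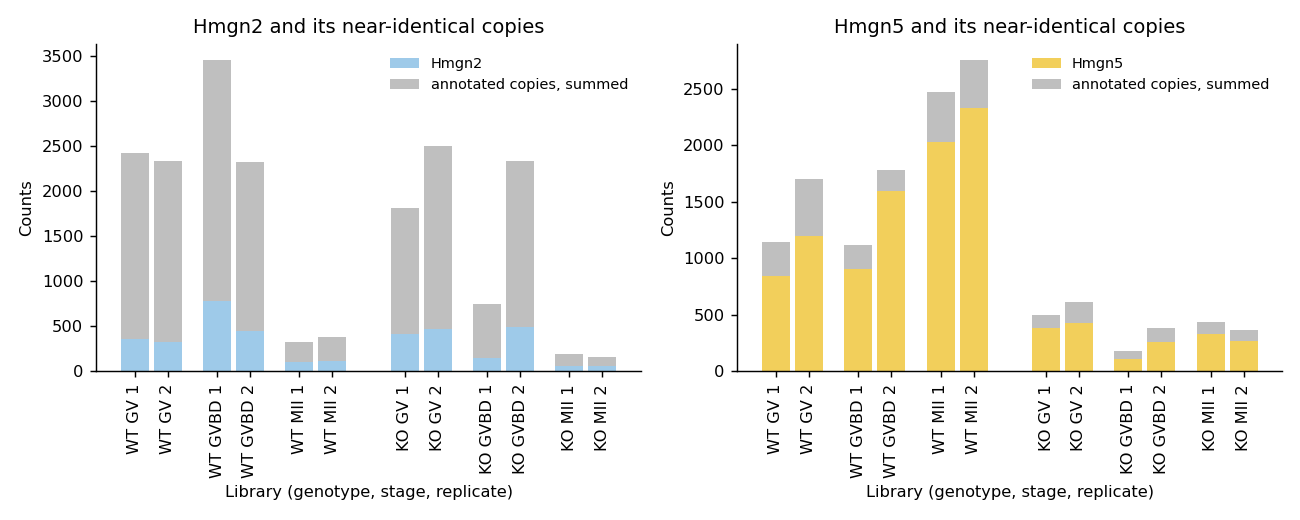
Counts of Hmgn2 (left) and Hmgn5 (right) in each of the 12 libraries, with the summed counts of their annotated near-identical copies stacked in grey, on linear axes that start at 0. For Hmgn2 the grey part was larger than the coloured part in every library, and in the MII libraries the sum stayed between 159 and 377 counts. For Hmgn5 the grey part was smaller than the coloured part in every library.

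*Hmgn3*, the member the choice rested on, had low WT counts of 88 and 107 at GV, then 76 and 66 at GVBD, with 147 and 137 at MII. Its KO counts were 406 and 340 at GV, next 615 and 677 at GVBD, with 587 and 1853 at MII. Every KO library was above every WT library, and KO MII replicate 2 was the highest of all. The choice of genes rested on this direction, and the share of all genes with this separation was not counted. Within every stage, KO values per 1000 ERCC counts lay above WT values for 5.39% of 22004 genes. Per 1000 ERCC counts the WT means were 0.316 ± 0.0813 (SD, n = 2), 0.198 ± 0.0761 and 0.227 ± 0.0896 from GV to MII, and the KO means were 1.45 ± 0.535, 2.17 ± 0.465 and 2.37 ± 1.29. The search for near-identical copies found a single transcript, the antisense *Gm29054*, which had at most 7 counts. The use of strand in the counting is not given in the sources used here, but *Gm29054* and *Gm2065*, the annotated antisense transcripts over *Hmgn3*, both stayed at 7 counts or fewer.

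*Hmgn5*, the X-linked member with the acidic tail, had WT counts of 840 and 1198 at GV, then 905 and 1600 at GVBD, with 2028 and 2335 at MII. The KO libraries held 379 and 424 at GV, next 108 and 258 at GVBD, with 334 and 272 at MII. Every KO library was below every WT library, in contrast with *Hmgn3*, a separation that was not counted over all genes. Within every stage, KO values per 1000 ERCC counts lay below WT values for 1.5% of 22004 genes. The WT means per 1000 ERCC counts were 3.32 ± 1.21 (SD, n = 2), 3.26 ± 0.356 and 3.39 ± 0.861, and the KO means were 1.52 ± 0.261, 0.571 ± 0.187 and 0.655 ± 0.244. Its copy *Gm11914*, 99.4% identical over 507 bases, had 75 to 503 counts, and both copies together came to between 11.3% and 69.4% of the *Hmgn5* count. With copies added, the WT sums were 1117 to 2760 counts and the KO sums 183 to 614, which still did not overlap.

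**Figure D2:**
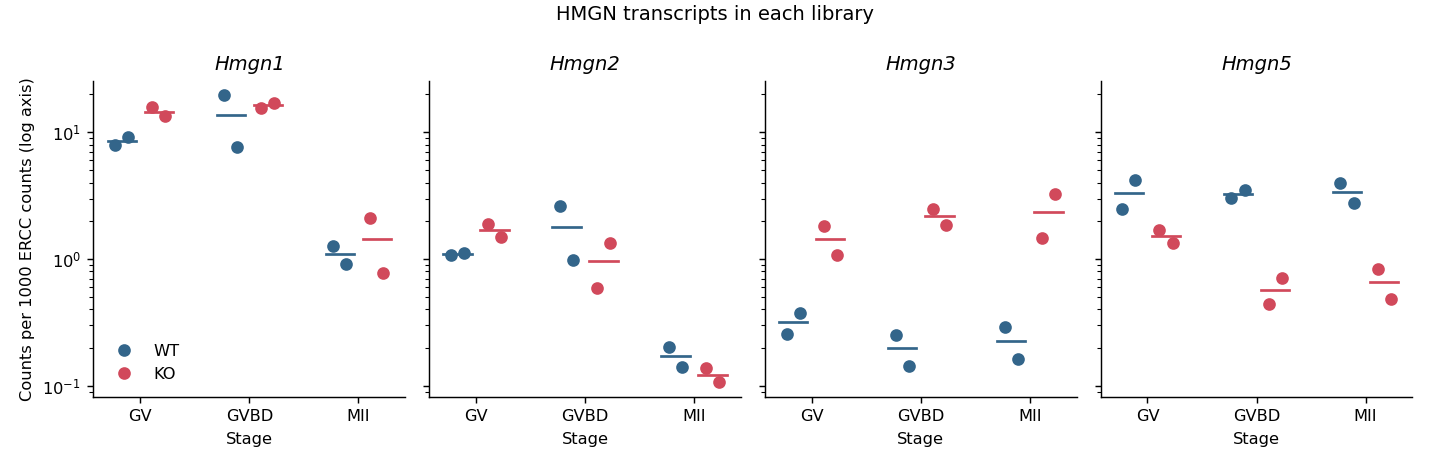
Counts per 1000 ERCC counts of the 4 genes on a log axis, by stage, with 1 point per library and a bar at the mean of 2 libraries, WT in blue and KO in red. Hmgn1 and Hmgn2 dropped at MII in both genotypes, whereas Hmgn3 lay between 1.07 and 3.28 in KO against 0.145 to 0.373 in WT and Hmgn5 between 0.440 and 1.71 in KO against 2.47 to 4.18 in WT.

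To ask how the members behaved as oocytes matured, stages were compared within each genotype, a contrast that the choice of genes did not use. A gene was called when its edgeR quasi-likelihood p, adjusted by Benjamini-Hochberg, was under 0.05 and it changed by at least 1 on the log2 scale in either direction. From GV to MII, *Hmgn1* and *Hmgn2* fell in both genotypes, while *Hmgn3* and *Hmgn5* did not pass the test in either. In WT, 2 of 4 members were called lower, against 30.5% of all tested genes. In KO, the same 2 of 4 were called lower, against 3.28% of all tested genes. Over all genes in WT, 74 were called higher and 5747 lower, and with TMM scaling 1329 and 3193. In KO 1 was called higher and 615 lower, and with TMM 217 and 689.

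In WT, *Hmgn1* fell by 2.97 ± 0.52 (SE) on the log2 scale from GV to MII (edgeR, adjusted p = 2.31e-07), a 7.83-fold decrease. *Hmgn2* fell by 2.67 ± 0.61 (edgeR, adjusted p = 9.42e-05), and with the copies added it fell by 3.80 ± 0.55 (adjusted p = 1.36e-10). The median tested gene had a log2 change of −1.06, and both members lay below it. *Hmgn3* had a log2 change of −0.48 ± 0.69 (adjusted p = 0.674) and *Hmgn5* of 0.03 ± 0.49 (adjusted p = 0.976), which are 0.58 and 1.09 above that of the median gene. Under median-of-ratios scaling, which sets the typical gene to no change, *Hmgn5* passed the threshold as higher (log2 change 1.04, adjusted p = 0.0279) and the value of *Hmgn3* turned positive (0.49, adjusted p = 0.391).

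In KO, *Hmgn1* fell by 3.33 ± 0.70 (SE) on the log2 scale from GV to MII (edgeR, adjusted p = 0.0413) and *Hmgn2* fell by 3.78 ± 0.79 (adjusted p = 0.0413). *Hmgn3* had a log2 change of 0.71 ± 0.72 (adjusted p = 0.573) and *Hmgn5* of −1.22 ± 0.72 (adjusted p = 0.32), beside −1.17 for the median gene. Without KO GV replicate 1 or 2 the calls of *Hmgn1* and *Hmgn2* were lost (adjusted p from 0.338 to 0.588) at log2 changes between −3.93 and −3.21. Without KO MII replicate 1, all 4 members were called, *Hmgn3* as higher (log2 change 1.18, adjusted p = 0.0136) and *Hmgn5* as lower (−1.66, adjusted p = 0.005). In that fit 62 genes were called higher and 11013 lower of 20437 tested, so a call as lower was common among all genes.

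The decrease was called between GVBD and MII. From GV to GVBD no member was called in either genotype, where 0.0102% of genes were called lower in WT and 0.184% in KO. The log2 changes over this step ranged from −0.67 for *Hmgn3* to 0.71 for *Hmgn2* in WT, and from −1.41 for *Hmgn5* (adjusted p = 0.461) to 0.58 for *Hmgn3* in KO. From GVBD to MII, *Hmgn1* fell by 3.64 ± 0.71 (SE) in WT (edgeR, adjusted p = 8.82e-06), and in KO it fell by 3.50 ± 0.80 (adjusted p = 0.00749). *Hmgn2* fell by 3.38 ± 0.78 in WT (adjusted p = 0.000202), and in KO it fell by 2.97 ± 0.93 (adjusted p = 0.0449). Those were 2 of 4 members called lower in each genotype, against 27.1% of genes in WT and 7.12% in KO. Without WT GVBD replicate 1 the WT calls were lost (adjusted p = 0.0541 and 0.0801), and the KO calls were lost without either KO GVBD library or without KO MII replicate 2 (adjusted p from 0.0505 to 0.862). With TMM or median-of-ratios scaling the KO call of *Hmgn2* was lost as well (adjusted p = 0.132 and 0.133).

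**Figure D3:**
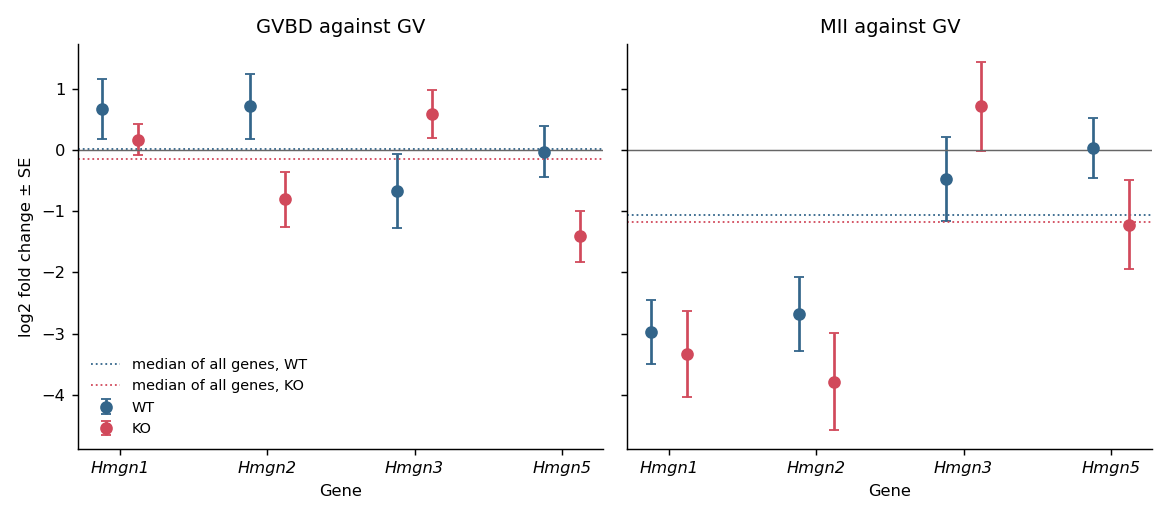
Log2 fold changes with standard errors of the 4 genes for GVBD against GV (left) and MII against GV (right), WT in blue and KO in red, each from 2 libraries against 2 libraries, with dotted lines at the median of all tested genes. At MII the points of Hmgn1 and Hmgn2 lie between −3.78 and −2.67 in both genotypes, below both medians, and those of Hmgn3 and Hmgn5 between −1.22 and 0.71.

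Whether the change from GV to MII differed between genotypes was tested as an interaction term. No member was called, and 0% of the 20807 tested genes were. By edgeR 0 genes were called, although 1197 had an unadjusted p under 0.05, and DESeq2 called 150. For KO minus WT, the interaction was −0.37 ± 0.74 (SE) for *Hmgn1*, −1.11 ± 0.78 for *Hmgn2*, 1.19 ± 0.88 for *Hmgn3* and −1.25 ± 0.75 for *Hmgn5* on the log2 scale. A difference between genotypes was thus not detected for any member, and with these standard errors equal behaviour was not shown either.

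The balance between members was then followed within each library, where the ratio of 2 counts does not depend on the spike-in or on the number of oocytes. Each of the 6 pairs was compared between the 4 MII and the 8 earlier libraries by a two-sided exact permutation of stage within genotype, whose smallest possible p is 0.00444. The log2 ratio of *Hmgn1* to *Hmgn3* differed by −3.50 at MII, with a mean of 0.76 at MII and 4.26 before (exact permutation p = 0.00444, adjusted over 6 ratios 0.00667). The ratios of *Hmgn1* to *Hmgn5*, *Hmgn2* to *Hmgn3* and *Hmgn2* to *Hmgn5* differed by −3.17, −3.22 and −2.89 with the same exact p. In each of these 4 ratios, and within both genotypes, the MII libraries did not overlap with the earlier ones. This comparison was set after the counts had been seen. The 4 ratios share the same genes and restate the fall of *Hmgn1* and *Hmgn2*, so they are not separate support for it.

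The other 2 ratios did not pass the test. The log2 ratio of *Hmgn1* to *Hmgn2* differed by −0.27 between MII and the earlier libraries (exact permutation p = 0.409), and that of *Hmgn3* to *Hmgn5* by 0.33 (p = 0.604). The count of *Hmgn1* was 7.43 to 8.19 times that of *Hmgn2* in WT GV and GVBD libraries, 6.33 and 6.42 times in WT MII, and between 7.27 and 26.5 times in KO. The highest of these ratios belonged to KO GVBD replicate 1. With the copies added to *Hmgn2*, the sign of this difference turned and it was 0.51 (exact permutation p = 0.116). The count of *Hmgn1* was then 1.12 to 1.70 times that of *Hmgn2* in WT GV and GVBD libraries and higher in both WT MII libraries, at up to 2.03 times, while KO MII overlapped with the earlier KO libraries. With copies added to *Hmgn2* and *Hmgn5*, the 4 ratios above differed by −4.01 to −3.05, each with an exact permutation p of 0.00444, and the MII libraries remained apart. The count of *Hmgn3* was 0.0413 to 0.105 times that of *Hmgn5* in all 6 WT libraries and 0.802 to 6.81 times in the 6 KO libraries. This difference restates in part the contrast on which the genes were chosen.

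Levels of different genes were compared only after division by exon length, as counts per 1000 ERCC counts and per kilobase of the gene's exons. The length joined the exons of all annotated transcripts, 3221, 3060, 1869 and 1934 bases for *Hmgn1*, *Hmgn2*, *Hmgn3* and *Hmgn5*. The transcripts used for the 3′ UTR searches had 2174, 1265, 983 and 1934 bases. Those lengths would raise the other members relative to *Hmgn5*, and orders and shares with them were not computed. On the joined-exon scale the order in WT GV and WT GVBD was *Hmgn1*, *Hmgn5*, *Hmgn2* and *Hmgn3*, and in WT MII it was *Hmgn5*, *Hmgn1*, *Hmgn3* and *Hmgn2*. In these WT groups no neighbours in the order overlapped. In KO the order was *Hmgn1*, *Hmgn5*, *Hmgn3* and *Hmgn2* at GV, *Hmgn1*, *Hmgn3*, *Hmgn2* and *Hmgn5* at GVBD, and *Hmgn3*, *Hmgn1*, *Hmgn5* and *Hmgn2* at MII. *Hmgn5* and *Hmgn3* overlapped at KO GV, as did *Hmgn3* and *Hmgn2*, and *Hmgn2* and *Hmgn5* overlapped at KO GVBD and *Hmgn1* and *Hmgn5* at KO MII. The position of *Hmgn2* is uncertain, since reads that also match its copies may have been left out or counted for another copy.

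The summed per-kilobase level of the family was 4.90 ± 0.952 (SD, n = 2) at GV, 6.59 ± 2.84 at GVBD and 2.27 ± 0.587 at MII in WT. In KO it was 6.63 ± 1.03, 6.83 ± 0.303 and 2.09 ± 0.265. The totals of the WT MII and KO MII libraries overlapped, while the shares of *Hmgn3* and *Hmgn5* in them did not. The shares use the *Hmgn3* values on which the genes were chosen, so their difference between genotypes restates that contrast in part and is a description only. *Hmgn5* held 77.0% and 77.6% of the total in the WT MII libraries and 22.4% and 10.9% in the KO MII libraries. *Hmgn3* held 5.78% and 4.71% in the WT MII libraries, against 40.8% and 77.0% in those of KO. Before MII, *Hmgn1* held the largest share in both genotypes, in WT with 54.7% ± 5.12 (SD, n = 2) at GV, then 61.1% ± 13.3 at GVBD, and in KO with 68.3% ± 2.72, then 74.0% ± 0.863. At MII the share of *Hmgn1* was 15.0% ± 0.355 in WT and 22.5% ± 16.9 in KO. These shares leave out the copies and depend on the exon lengths used. With copies added, over the exon length of the member itself, *Hmgn1*, *Hmgn2* and *Hmgn5* held 34.7% ± 3.24 (SD, n = 2), 32.6% ± 3.21 and 30.5% ± 6.31 in WT GV, so none of the 3 stood apart there. In WT MII *Hmgn5* then held 76.7% ± 0.0508, and in the KO MII libraries 26.0% and 13.9%.

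**Figure D4:**
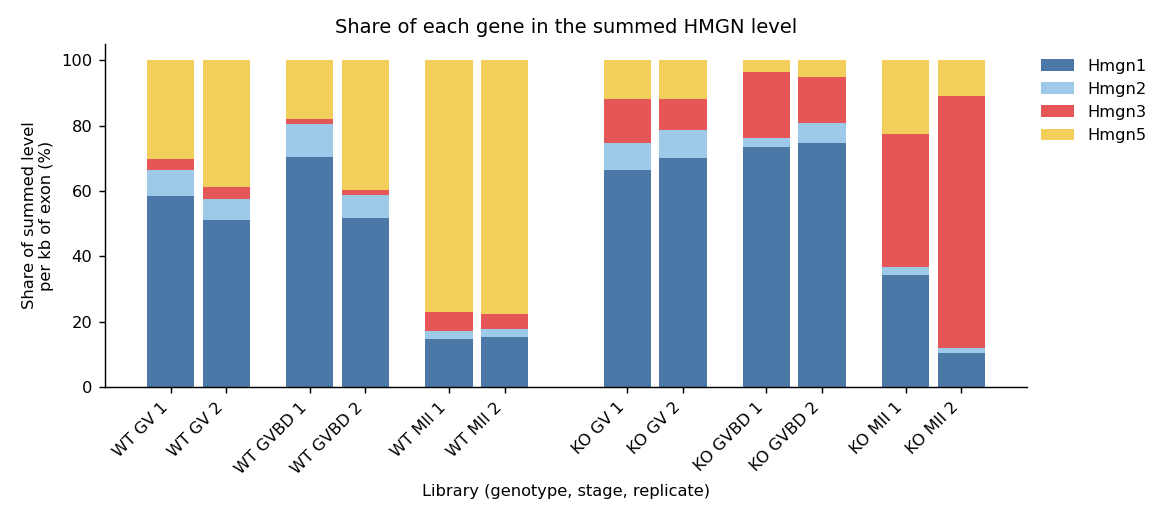
Share of each gene in the summed HMGN level per kilobase of exon, in percent, as 1 stacked bar for each of the 12 libraries. Copies are not counted. Hmgn1 (dark blue) fills more than the other genes in the GV and GVBD libraries, Hmgn5 (yellow) fills 77.0% and 77.6% of the WT MII bars, and Hmgn3 (red) 40.8% and 77.0% of the KO MII bars.

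Between genotypes, the difference that led to the choice of these genes is a description, with no p-value. The log2 fold change of *Hmgn3* in KO against WT was 2.20 ± 0.42 (SE) at GV, 3.46 ± 0.63 at GVBD, 3.39 ± 0.96 at MII and 3.02 ± 0.37 with the 3 stages fitted together. For *Hmgn5* it was −1.13 ± 0.32, −2.51 ± 0.57, −2.37 ± 0.89 and −2.01 ± 0.32 in the same order. For *Hmgn1* it was 0.77 ± 0.18 at GV, 0.26 ± 0.54 at GVBD and 0.40 ± 0.87 at MII. For *Hmgn2* it was 0.62 ± 0.27, −0.89 ± 0.62 and −0.49 ± 1.05 over the same stages. The median gene stood at 0.36, 0.23 and 0.30 at the 3 stages, so *Hmgn1* was close to the typical gene at GVBD and MII, and *Hmgn3* and *Hmgn5* were far from it on either side.

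Under the same call rule, 0 of 4 members were called at GV, where 0.0977% of tested genes were, and 2 of 4, *Hmgn3* and *Hmgn5*, at GVBD, where 2.54% were. At MII 0 of 4 were called, with 0.803% of genes called, and over all stages 2 of 4, the same genes, with 1.26%. By the spread of libraries, the KO values of *Hmgn3* lay above the WT values in every stage, as did those of 5.39% of 22004 genes. Those of *Hmgn5* lay below WT in every stage, as did those of 1.5% of genes. These counts also moved with the fit. At GV, *Hmgn3* and *Hmgn5* were both called with no filter on low counts and with DESeq2, and at MII with DESeq2 and with the 12 libraries in 1 model. At GVBD neither was called with TMM or median-of-ratios scaling, in the joint model, or without either WT GVBD library, and over all stages both were called under every setting run. Nothing is read from these counts, because the genes were chosen on this contrast. Without KO MII replicate 2 the log2 fold change of *Hmgn3* at MII was 2.68, and without WT GVBD replicate 1 that of *Hmgn2* at GVBD was −0.03. The summed granulosa markers were also somewhat higher in KO, at 49.0 and 76.8 CPM in KO MII against 41.1 and 47.4 in WT MII. Most of this sum was *Cyp19a1*, with 1267 to 2225 counts in KO MII and 1267 to 1365 in WT MII. Other markers went either way, such as *Fshr* (41 to 173 against 39 to 64) and *Kitl* (73 to 221 against 227 to 263). The part of granulosa RNA in the differences was not tested.

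**Figure D5:**
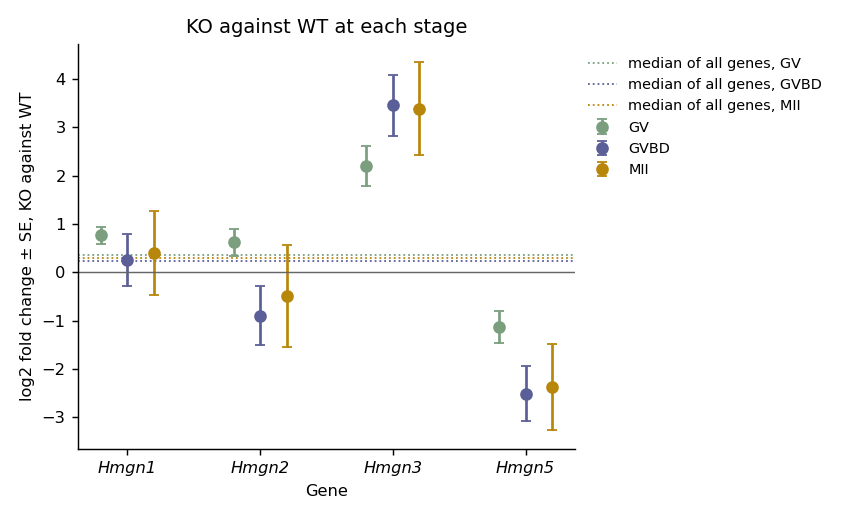
Log2 fold changes with standard errors of the 4 genes in KO against WT at GV, GVBD and MII (2 libraries against 2 libraries each), with dotted lines at the median of all tested genes. Hmgn3 stands at 2.20 to 3.46 and Hmgn5 at −2.51 to −1.13, while Hmgn1 and Hmgn2 stand between −0.89 and 0.77.

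Other chromatin proteins were examined as groups beside the HMGN members. Of the HMGA and HMGB proteins, which bend or bind DNA directly, 6 of 7 were tested, and 2 fell from GV to MII in WT, where 30.5% of all tested genes were called lower. These were *Hmga1* (log2 change −2.74 ± 0.62 SE, edgeR adjusted p = 9.86e-05), with 282 to 318 counts in WT GV and 75 to 117 in WT MII, and its near-copy *Hmga1b* (−2.49 ± 0.76, adjusted p = 0.00505). The median of this group was −0.83 against −1.06 for all genes and −1.58 for the HMGN members. In KO none of the 6 passed from GV to MII, where 3.28% of all tested genes were called lower. None was called between genotypes at GV, GVBD or MII, where 0.0977%, 2.54% and 0.803% of tested genes were.

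Of the linker histones, with which HMGN proteins compete, 4 of 11 were tested from GV to MII in either genotype, and 1 fell in WT, where 30.5% of all genes were called lower. This was the canonical *Hist1h1c* (log2 change −2.58 ± 0.70 SE, edgeR adjusted p = 0.00126), which had a log2 change of −4.08 ± 1.07 in KO (adjusted p = 0.0619). *Hist1h1c* was also the only gene of these groups, apart from the HMGN members, that was called between genotypes. This was at GVBD, where 2.54% of all tested genes were called. Its counts there were 375 to 524 in WT and 13 to 85 in KO (−3.15 ± 0.72, edgeR adjusted p = 0.0196). The oocyte linker histone *H1foo* had 29524 to 164184 counts in the WT libraries. From GVBD to MII in WT, where 131 of 19211 genes were called higher, it rose (1.42 ± 0.58, edgeR adjusted p = 0.0498). In KO it stood at −0.04 ± 0.56. Its WT change was −1.42 ± 0.37 from GV to GVBD (adjusted p = 0.334) and 0.0039 ± 0.41 from GV to MII (adjusted p = 0.997).

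Of 19 histone chaperones, 2 fell from GV to MII in WT and none in KO, where 30.5% and 3.28% of all tested genes were called lower. Both encode subunits of chromatin assembly factor 1, which deposits histones on newly made DNA, and changed by −1.93 ± 0.49 (SE) for *Chaf1a* (edgeR, adjusted p = 0.000622) and −3.46 ± 0.58 for *Chaf1b* (adjusted p = 4.12e-08). In KO the log2 changes from GV to MII were −2.00 ± 0.87 for *Chaf1a* (edgeR, adjusted p = 0.191) and −2.90 ± 0.75 for *Chaf1b* (adjusted p = 0.0601). *Chaf1b* fell from GVBD to MII in KO (−2.76 ± 0.85, edgeR adjusted p = 0.0406), where 7.12% of all tested genes were called lower. Among genes reported elsewhere to respond to HMGN proteins, the immediate-early gene *Fos* fell from GV to MII in WT (−3.19 ± 0.89, edgeR adjusted p = 0.00186). In that comparison 30.5% of all tested genes were called lower. *Sox9* was called lower from GVBD to MII in WT (edgeR, adjusted p = 0.00567) on 12 and 16 counts against 0 in both MII libraries. Over this step 27.1% of all tested genes were called lower. *Slc6a9*, a glycine transporter gene linked to HMGN3, had 369 to 1596 counts in WT and 258 to 400 in KO, with a log2 fold change of −0.78 ± 0.35 over all stages (edgeR, adjusted p = 0.241).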

How the data were processed

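Polyadenylated RNA was sequenced in 12 oocyte libraries, and the deposited values are raw counts per gene for 56691 genes and 92 ERCC sequences. Per the methods and the labels, the authors trimmed reads with cutadapt (1.9 in the processing notes), aligned them with HISAT2 (2.0.4) to GRCm38 plus ERCC, kept uniquely mapped reads and passed them to StringTie (1.3.4d). The study's reporting summary gives other versions of cutadapt and HISAT2, and the extraction protocol in the labels describes a stranded bulk preparation where the methods describe SMART-seq, so strand handling is not settled. Reads were amplified by PCR and carried no molecular identifiers, so counting error is larger than the counts alone imply.

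The members and gene lists were chosen with earlier results of these data known. Comparisons were fitted over all genes with edgeR 4.0.16 (glmQLFit, R 4.3.3) on the groups compared, with library sizes in proportion to summed ERCC counts and genes kept by filterByExpr. Tests were two-sided. KO against WT over all stages had stage as a covariate. Before use the fit was run on counts simulated with the same dispersion for every gene and group. The real groups differ in replicate spread, so that run does not show how well the fits perform here. Symbols matched 52073 identifiers (91.9%), and gene models were those of GENCODE M21. Copies were searched with BLAST 2.17.0 and ratios used a pseudocount of 0.5 counts. Members are named in full, with up to 4 called genes and up to 3 others of each other list, the 5 genes most like *Hmgn3* and *Hmgn5* and their 3 nearest tested neighbours on each side. Replicate numbers come from the library titles, and no source ties them to animals or days, so p-values measure the spread between these libraries. Alternatives were scaling by TMM or by median of ratios, a spike-in limited to sequences with at least 10 counts, unfiltered genes, DESeq2 1.42.0, 1 joint model of the 12 libraries, a block for the replicate number and each library left out in turn. Crossed numbers, copies added (also to ratios and shares) and the permutation of ratios were added after seeing the data. The result of 1 gene on the list of HMGN-responsive genes is not reported here.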

Additional observations from a re-analysis of the deposited data

Results flagged for a closer look

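The genotype difference of *Hmgn2* pointed in opposite directions at 2 stages, with a log2 fold change of 0.62 in KO against WT at GV, where both KO libraries were above both WT libraries, and −0.49 at MII, where both were below. Tested as the interaction, this difference was −1.11 ± 0.78 (SE) and did not pass (edgeR, adjusted p = 1). With the copies of *Hmgn2* added, the value at GV was 0.08 ± 0.18 and the libraries overlapped. The GV to GVBD change of *Hmgn3* pointed down in WT (log2 fold change −0.67) and up in KO (0.58). The difference between these steps was not tested.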

How the results depend on the processing

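Among 342 recomputed values of the 4 genes in stage comparisons and the interaction, 322 kept their side of the threshold, 16 lost a call, 4 gained one and 0 called values reversed, although values not called could change sign, as *Hmgn3* did from GV to MII in WT. Of 220 values for KO against WT, which carry no test, 210 moved by less than the replicate spread and 10 further. Median-of-ratios scaling gave *Hmgn5* a log2 change of 1.04 from GV to MII in WT. TMM moved the median gene there from −1.06 to −0.22, and median-of-ratios to −0.08. From GVBD to MII in KO, 1 member was called with TMM, 1 with median-of-ratios scaling and 0 with crossed numbers.

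With 1 library left out, a group of 1 library is assumed to vary like the other. The number of members called ranged from 0 to 4 for GV to MII in KO, 0 to 2 for GVBD to MII in KO, 0 to 2 for GVBD to MII in WT and 0 to 1 for GV to GVBD in KO. Genes called among all ranged from 39 to 11075, 20 to 6334, 1852 to 5297 and 7 to 888 in the same order, from 2853 to 5347 for GV to MII and 0 to 629 for GV to GVBD in WT, 0 to 514, 5 to 813 and 11 to 542 for KO against WT at GV, GVBD and MII, 63 to 918 over all stages, and 0 to 285 for the interaction. From GV to MII in KO the log2 changes ranged from −4.23 to −2.78 for *Hmgn1*, from −3.98 to −3.60 for *Hmgn2*, from 0.00448 to 1.18 for *Hmgn3* and from −1.66 to −0.88 for *Hmgn5*.

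Same-numbered differences correlated between −0.21 and 0.14, so the numbers were not taken to pair libraries. With a replicate block, 2 members were called from GV to MII in WT and in KO, *Hmgn1* with a log2 change of −2.99 in WT and −3.50 in KO, and the block changed no call of a member in a stage comparison. The background moved with the fit: genes called numbered 616 from GV to MII in KO, up to 3214 under other settings with all libraries, 1293 from GVBD to MII in KO (204 to 2738), 42 (1 to 516) and 10 (3 to 528) from GV to GVBD in KO and WT, 494 (13 to 953), 19 (0 to 676) and 141 (0 to 363) for KO against WT at GVBD, GV and MII, 278 (278 to 1356) over all stages, and 0 (0 to 346) for the interaction. The lowest count of a member was 56, for *Hmgn2* in KO MII.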

Other observations

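Across the 12 libraries, the log2 levels of *Hmgn1* and *Hmgn2* had a Pearson correlation of 0.94 and those of *Hmgn3* and *Hmgn5* one of −0.90, with values of 0.88 and −0.72 after TMM scaling. The libraries share 6 groups of genotype and stage, so these values describe the group pattern. Of 22004 genes, the 5 named genes most like *Hmgn3* by this correlation were *Tmc2* (0.965), *Pla1a* (0.943), *Gng10* (0.941), *Prl8a2* (0.938) and *Lsmem1* (0.937). *Tmc2*, a channel gene of hair cells, had 156 to 448 counts in WT and 355 to 1261 in KO. The genes most like *Hmgn5* were *Zfp870* (0.935), *Tmem80* (0.929), *Tex15* (0.929), *Sp100* (0.925) and *AU023070* (0.918). *Tex15*, needed for meiosis and transposon silencing in male germ cells, had 3135 to 5137 counts in WT and 119 to 659 in KO. These lists depended on the scaling, since 2 of the 5 genes like *Hmgn3* and 1 of the 5 like *Hmgn5* stayed among the first 5 with TMM, and the same numbers with rank correlation.

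Genes on either side of the members were also compared between KO and WT over all stages. None of the 6 nearest tested genes around *Hmgn3* was called, and the closest, *Phip*, had a log2 fold change of 0.11 ± 0.28 (SE) with 1175 to 2686 counts in WT and 915 to 2722 in KO. Around *Hmgn5*, 1 of 6 was called, beside 1.26% of all tested genes. This was *Tent5d* (−2.17 ± 0.43, edgeR adjusted p = 0.0279), with 36 to 297 counts in WT and 7 to 49 in KO. *Tent5d* lies 1132 kb from *Hmgn5*, and the closer *Sh3bgrl*, *Brwd3* and *Gm6377*, at 82.0, 170 and 183 kb, were not called.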
